A study of Saccharomyces cerevisiae with 11 samples.

Results

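The 33 genes described here cover ergosterol synthesis and sterol ester metabolism in budding yeast, out of 5449 *S. cerevisiae* genes measured. They were taken by name from the platform's annotation and comprise 9 genes of the mevalonate pathway, 3 of the steps from squalene to lanosterol, 7 of the steps from lanosterol to zymosterol, 2 electron carriers, 5 of the steps from zymosterol to ergosterol, 4 of sterol ester formation and hydrolysis, and 3 transcription factors. Each gene was measured by 1 probe set. Total RNA came from wild-type W303-1B cells (5 arrays) and from cells with the *rna14-1* allele (3 arrays) or the *rna15-1* allele (3 arrays), all grown at 30°C to mid-log phase. *RNA14* and *RNA15* encode subunits of cleavage factor I (CFI), which acts in the cleavage of pre-mRNA 3′ ends and in transcription termination. All 3 strains are labelled MATa and share the auxotrophic alleles *trp1-1*, *ade2-1*, *ura3-1* and *his3-11,15* and a *leu2* allele, so that only the CFI allele distinguishes the mutants in the labels. The medium is named YPAD in the labels and YEPD in the methods. The arrays of a strain are labelled as biological replicates, and the comparisons asked how the level of each sterol transcript differed in each mutant from the wild type and between the mutants.

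Ergosterol is the main sterol of yeast membranes. Its synthesis starts from acetyl-CoA through mevalonate, with HMG-CoA reductase as a main point of control, continues to squalene and lanosterol, and ends with a series of demethylation, reduction and desaturation steps in the endoplasmic reticulum, several of which need oxygen and haem. Excess sterol is esterified to fatty acids by acyltransferases, stored in lipid droplets and released again by hydrolases. Transcription of many *ERG* genes is activated by the zinc cluster factors Upc2 and Ecm22 when sterols are scarce.

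The deposited values are log2 intensities from the robust multiarray average method (RMA). The genes' median was between 10.34 and 10.40 on all arrays, and 98.7% to 99.7% of genes lay above background, which was the 95th percentile of probe sets of no *S. cerevisiae* gene (4.19 to 4.44). All 33 sterol genes were above it on every array. One mutant array was unlike its replicates: over all genes, *rna15-1* replicate 3 correlated at 0.965 with replicate 1 and 0.964 with replicate 2, which correlated at 0.997. The wild type formed 2 sets, replicates 1 and 2 (0.994) and replicates 3 to 5 (0.991 to 0.996), with lower values from set to set (0.981 to 0.989). The mating-type label was not matched by its marker genes. The 4 alpha-specific genes were bright on all wild-type arrays (lowest value 12.02), with a summed linear intensity of 24266 to 27487 in the wild type, 19981 to 26730 in *rna14-1* and 52715 to 57746 in *rna15-1*. The 7 a-specific genes summed to only 914 to 1460 in the wild type, and all 7 rose in both mutants (7990 to 9534 in *rna14-1*, 5563 to 12527 in *rna15-1*). Of 20 general stress genes 16 rose in *rna14-1* and 11 in *rna15-1*, and their summed intensity was 39891 to 51431 in the wild type, 120596 to 127975 in *rna14-1* and 90399 to 137800 in *rna15-1*. At the threshold defined below, which was used for both marker sets, 32.8% of all genes rose in *rna14-1* and 28.2% in *rna15-1*. The part of mating type and stress in the sterol results was not tested. In such bulk RNA, fewer cells with a transcript and less transcript per cell cannot be told apart.

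Sterol genes fell more often than they rose, in *rna15-1* above all. A gene is said to have risen or fallen where limma, fitted over all genes, gave an adjusted p (Benjamini-Hochberg) under 0.01, and changes are log2 fold changes ± standard error. In *rna14-1*, 12 of the 33 genes fell (36.4%, against 29.5% of all genes) and 5 rose (15.2%, against 32.8% of all genes). In *rna15-1*, 21 of the 33 fell (63.6%, against 24.7%) and 3 rose (9.09%, against 28.2%). The median change of the 33 genes was -0.13 in *rna14-1* and -0.42 in *rna15-1*, while that of all genes was 0.00 and 0.03. On single arrays the median of the 33 genes lay 0.14 to 0.18 below the wild-type mean in *rna14-1* and 0.35 to 0.36 below it in *rna15-1*, replicate 3 included. Their summed linear intensity was 185789 to 205043 in the wild type, 167317 to 179383 in *rna14-1* and 153065 to 156958 in *rna15-1*, so that the 3 strains did not overlap. All *rna14-1* arrays were below all wild-type arrays for 14 genes and above them for 9 (36.1% and 37.7% of all genes). All *rna15-1* arrays were below for 23 genes and above for 4 (29.1% and 32.6% of all genes).

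**Figure D1:**
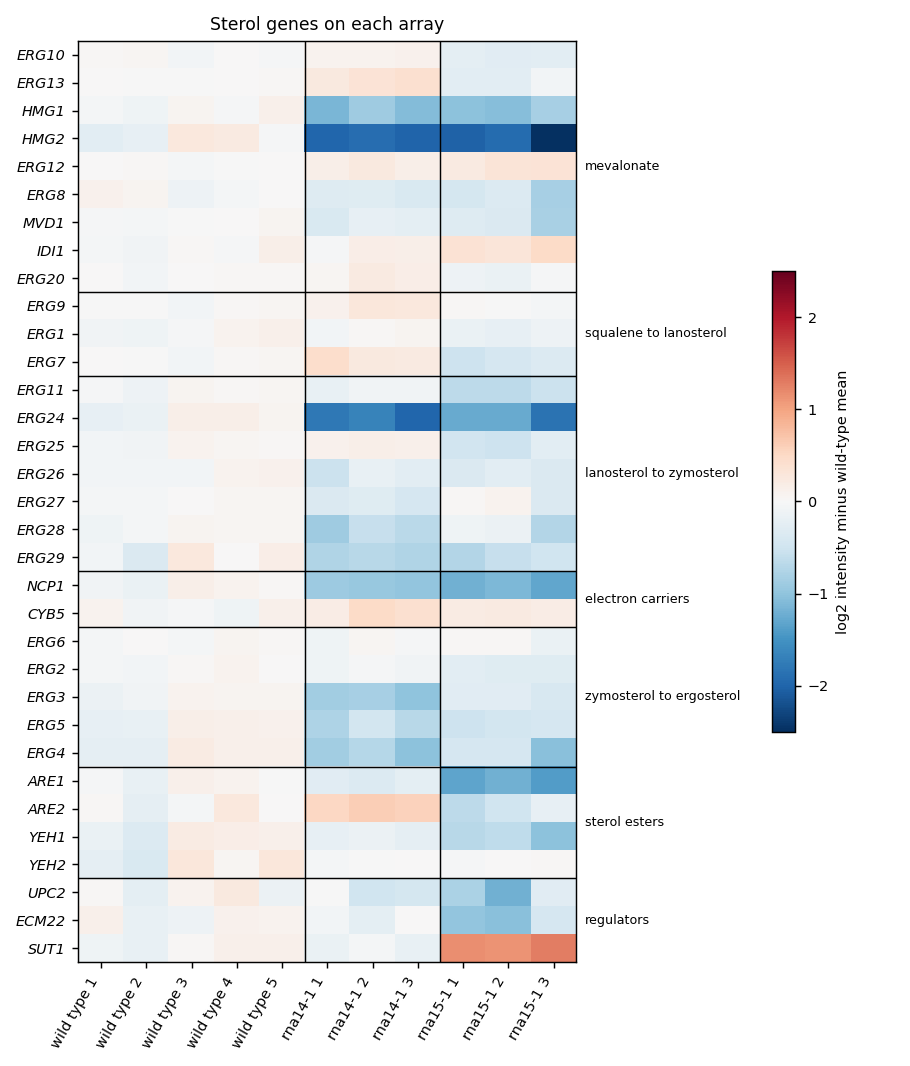
Log2 intensity of each of the 33 sterol genes (rows, ordered by pathway step) on each of the 11 arrays (columns), minus the mean of the 5 wild-type arrays. Blue cells lie below the wild-type mean and red cells above it, with the deepest blue for *HMG2* on *rna15-1* replicate 3 and the strongest red for *SUT1* on the 3 *rna15-1* arrays.

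The thresholds of the methods also ask for a change of over 2-fold, a B-statistic over 2 and an average intensity A over 7. In *rna14-1*, 3 genes passed them downwards (*HMG1*, *HMG2* and *ERG24*, against 7.96% of all genes) and 0 upwards (10.1% of all genes). There 21 of the 33 genes had an unadjusted p under 0.05 in limma, as did 4088 of all 5449 genes. In *rna15-1*, 4 passed them downwards (*HMG2*, *ERG24*, *NCP1* and *ARE1*; 5.32% of all genes) and *SUT1* alone upwards (6.53% of all genes). Most changes of sterol genes were therefore smaller than 2-fold. The median standard deviation of the 33 genes was 0.095 in the wild type, 0.072 in *rna14-1* and 0.098 in *rna15-1*. Over all genes it was 0.126, 0.086 and 0.158. The highest of the 33 were 0.296 in the wild type (*YEH2*), 0.267 in *rna14-1* and 0.462 in *rna15-1* (*UPC2* in each mutant).

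**Figure D2:**
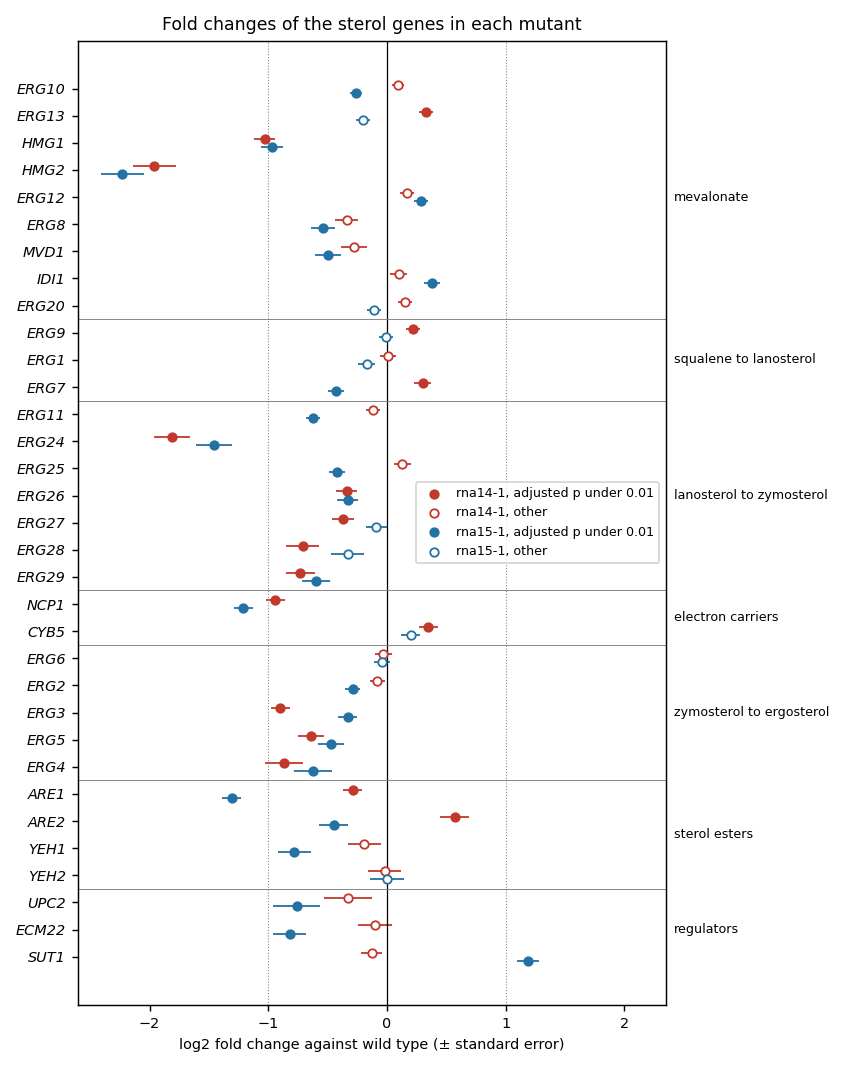
Log2 fold change against the wild type (x axis, point) with its standard error (bar) for each sterol gene in *rna14-1* (red) and *rna15-1* (blue), where filled points have an adjusted p under 0.01 and dotted lines mark 2-fold. *HMG2* and *ERG24* lie furthest to the left in both mutants, and *SUT1* in *rna15-1* is the only point beyond 2-fold on the right.

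In the mevalonate pathway both genes of HMG-CoA reductase fell strongly. The other genes of the pathway changed less, by at most 0.54 log2 units in either direction (*ERG8* in *rna15-1*). *HMG1* (YML075C, chromosome XIII) encodes the isozyme that provides most of the activity in aerobic cells. Its log2 intensity was 12.83, 12.77, 12.95, 12.86 and 13.01 in the wild type, 11.75, 12.00 and 11.80 in *rna14-1*, and 11.85, 11.82 and 12.05 in *rna15-1*. Both mutants lay below all wild-type arrays and overlapped with each other. *HMG1* fell by 1.03 ± 0.09 in *rna14-1* (adjusted p = 1.7e-06, limma) and by 0.97 ± 0.09 in *rna15-1* (adjusted p = 3.6e-06, limma).

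*HMG2* (YLR450W, chromosome XII) encodes the second isozyme, whose protein is degraded when the pathway is full. It was at 11.10, 11.16, 11.62, 11.58 and 11.32 in the wild type, at 9.38, 9.45 and 9.36 in *rna14-1*, and at 9.33, 9.44 and 8.63 in *rna15-1*. Replicate 3 of *rna15-1* was the lowest of all arrays, 0.75 below the mean of replicates 1 and 2, and no mutant array came near the wild type. *HMG2* fell by 1.96 ± 0.18 in *rna14-1* (adjusted p = 3.5e-06, limma) and by 2.23 ± 0.18 in *rna15-1* (adjusted p = 2.1e-06, limma), or 1.98 without replicate 3. These were the largest changes of the 33 genes, 3.89-fold and 4.68-fold.

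The measured falls of the 2 isozyme genes were unequal, but the exact test had too few arrays to pass a threshold of 0.01. *HMG1* fell less than *HMG2*. The log2 change of *HMG1* minus that of *HMG2* was 0.93 in *rna14-1* (0.85 to 1.02 on single arrays) and 1.25 in *rna15-1* (0.86 to 1.90), against -0.25 to 0.20 on the wild-type arrays. The exact two-sided permutation p was 0.0357 in each mutant, the smallest that 3 against 5 arrays allow, and 0.0571 after adjustment over the 8 paralogue comparisons made here.

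The other 7 mevalonate genes had smaller changes, and 3 of them fell and 2 rose in *rna15-1* (24.7% and 28.2% of all genes did). *ERG8*, for phosphomevalonate kinase, fell by 0.54 ± 0.10 in *rna15-1* (adjusted p = 8.6e-04, limma), *MVD1*, for mevalonate pyrophosphate decarboxylase, by 0.50 ± 0.11 (adjusted p = 0.0017, limma), and *ERG10*, for acetoacetyl-CoA thiolase, by 0.26 ± 0.05 (adjusted p = 0.0016, limma). On *rna15-1* replicate 3, *ERG8* and *MVD1* were 0.43 and 0.47 lower than on replicates 1 and 2, and without that array they fell by 0.39 and 0.34. *ERG12*, for mevalonate kinase, rose by 0.29 (adjusted p = 0.0011, limma) and *IDI1*, for isopentenyl diphosphate isomerase, by 0.38 (adjusted p = 0.0010, limma). In *rna14-1* the log2 fold changes of these 5 genes lay between -0.34 and 0.17, all with an adjusted p of at least 0.012. There only *ERG13*, for HMG-CoA synthase, rose, by 0.33 ± 0.06 (adjusted p = 7.6e-04, limma), with 13.18 to 13.33 on the *rna14-1* arrays, 12.91 to 12.96 in the wild type and 12.66 to 12.85 in *rna15-1*. In *rna14-1* and *rna15-1*, *ERG20*, for farnesyl pyrophosphate synthetase, had log2 fold changes of 0.15 and -0.11 (adjusted p = 0.050 and 0.16, limma).

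**Figure D3:**
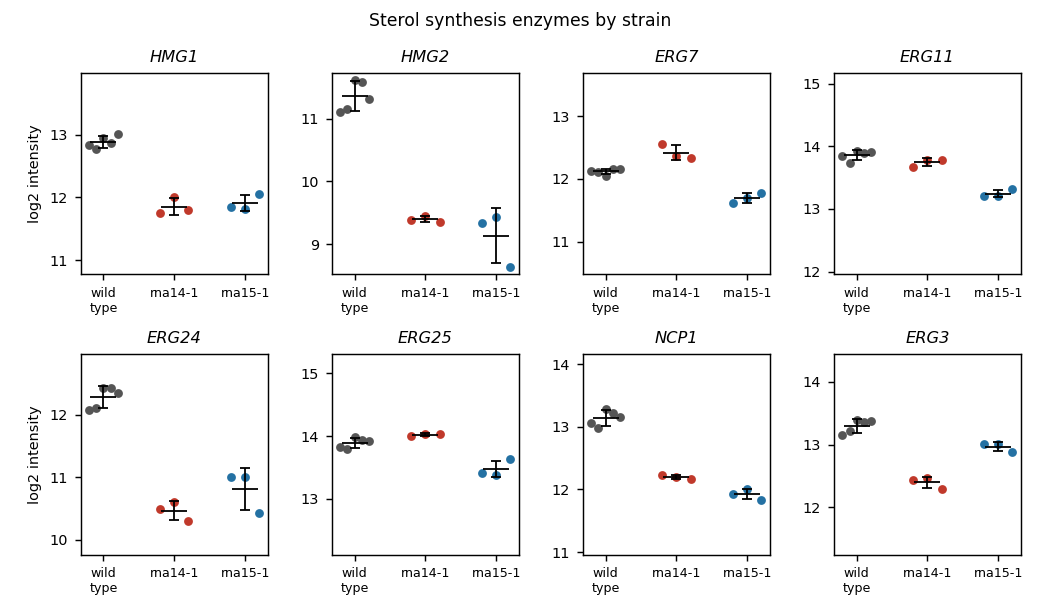
Log2 intensity (y axis) of 8 genes of sterol synthesis on each array (points) of the wild type, *rna14-1* and *rna15-1*, with the mean and standard deviation of each strain (bars); all panels span the same number of log2 units. *HMG1*, *HMG2*, *ERG24* and *NCP1* are low in both mutants, *ERG7*, *ERG11* and *ERG25* are low in *rna15-1* only, and *ERG3* is lowest in *rna14-1*.

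Of the 3 genes from squalene to lanosterol, *ERG7* alone differed between the mutants past the threshold (*ERG9* and *ERG1* had an adjusted p of 0.017 and 0.071, limma). *ERG7*, for lanosterol synthase, which closes the sterol rings, was at 12.05 to 12.16 in the wild type, at 12.56, 12.36 and 12.34 in *rna14-1* and at 11.61, 11.69 and 11.77 in *rna15-1*. The 3 strains did not overlap. *ERG7* rose by 0.30 ± 0.07 in *rna14-1* (adjusted p = 0.0021, limma) and fell by 0.43 ± 0.07 in *rna15-1* (adjusted p = 2.7e-04, limma), and the mutants differed by -0.73 (adjusted p = 4.0e-05, limma). *ERG9*, for squalene synthase, rose by 0.22 in *rna14-1* (adjusted p = 0.0079, limma), a call that was lost without any of 9 single arrays, with -0.01 in *rna15-1*. *ERG1*, for squalene epoxidase, had log2 fold changes of 0.01 and -0.17 (adjusted p = 0.88 and 0.048, limma). Without *rna14-1* replicate 1, the highest of its strain, *ERG7* was not past the threshold in *rna14-1*.

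From lanosterol to zymosterol 5 of 7 genes fell in each mutant (against 29.5% of all genes in *rna14-1* and 24.7% in *rna15-1*), led by *ERG24* (YNL280C, chromosome XIV), for the C-14 reductase that acts after the demethylase Erg11. *ERG24* was at 12.08, 12.11, 12.43, 12.42 and 12.35 in the wild type, at 10.50, 10.60 and 10.30 in *rna14-1*, and at 11.01, 11.01 and 10.43 in *rna15-1*. All mutant arrays were more than 1 log2 unit below the lowest wild-type array, and replicate 3 of *rna15-1* lay within the range of *rna14-1*. *ERG24* fell by 1.81 ± 0.15 in *rna14-1* (adjusted p = 1.4e-06, limma) and by 1.46 ± 0.15 in *rna15-1* (adjusted p = 9.4e-06, limma). The difference between the mutants was 0.36 ± 0.16 (adjusted p = 0.095, limma), and 0.55 without replicate 3 (adjusted p = 0.0044, limma).

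Genes of the demethylation steps showed different patterns in the mutants. *ERG11*, for the cytochrome P450 that removes the C-14 methyl group and is the target of azole antifungals, fell by 0.62 ± 0.06 in *rna15-1* (adjusted p = 1.3e-05, limma), with 13.21 to 13.32 there, 13.67 to 13.78 in *rna14-1* and 13.74 to 13.92 in the wild type. *ERG25*, for the C-4 methyl sterol oxidase, fell by 0.42 ± 0.07 in *rna15-1* (adjusted p = 4.4e-04, limma). In *rna14-1* these genes had log2 fold changes of -0.12 and 0.13 (adjusted p = 0.12 and 0.14, limma), and both were lower in *rna15-1* than in *rna14-1*, by -0.50 and -0.55 (adjusted p = 3.3e-04 and 3.8e-04, limma). *ERG29*, whose product acts with the oxidase Erg25, fell in both, by 0.73 ± 0.12 and 0.60 ± 0.12. *ERG26*, for the C-3 dehydrogenase, fell by 0.34 and 0.33 (adjusted p = 0.0053 and 0.0074, limma). In *rna14-1* this call was lost when any of 4 single arrays was left out, and in *rna15-1* when any of 8 was, and over the alternatives the adjusted p reached 0.068 and 0.084. *ERG27*, for the 3-keto reductase, fell by 0.37 in *rna14-1* (adjusted p = 0.0047, limma), which was lost without any of 6 arrays, with -0.09 in *rna15-1*.

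*ERG28*, for the scaffold that holds the C-4 demethylation enzymes together, is the only one of the 33 genes on chromosome V, whose genes had a median change of 0.46 in *rna15-1* and 0.03 in *rna14-1*. It fell by 0.71 ± 0.14 in *rna14-1* (adjusted p = 6.6e-04, limma) and changed by -0.33 ± 0.14 on the log2 scale in *rna15-1* (adjusted p = 0.051, limma), where its 20 nearest measured neighbours had a median of 0.52. Without *rna15-1* replicate 3, which lay 0.61 below the mean of the other arrays of its strain, that change was -0.13 (adjusted p = 0.22, limma). With the median change of each chromosome subtracted on every array, the change of *ERG28* in *rna15-1* was -0.81 (adjusted p = 3.8e-06, limma).

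The electron carriers went opposite ways in *rna14-1*. *NCP1* (YHR042W, chromosome VIII) encodes the NADPH-cytochrome P450 reductase that supplies electrons to Erg11, Erg5 and squalene epoxidase. It was at 13.06, 12.98, 13.28, 13.22 and 13.16 in the wild type, at 12.23, 12.20 and 12.16 in *rna14-1*, and at 11.93, 12.01 and 11.84 in *rna15-1*. The 3 strains did not overlap, and replicates were close to each other in both mutants. *NCP1* fell by 0.94 ± 0.08 in *rna14-1* (adjusted p = 1.6e-06, limma) and by 1.21 ± 0.08 in *rna15-1* (adjusted p = 4.8e-07, limma), the lowest adjusted p among the genes of sterol synthesis in that mutant. *CYB5*, for cytochrome b5, rose by 0.35 ± 0.08 in *rna14-1* (adjusted p = 0.0028, limma), which was lost without replicate 2 or 3 of that strain, while its value in *rna15-1* was 0.20 (adjusted p = 0.050, limma).

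At the end of the pathway the C-5 desaturase, C-22 desaturase and C-24(28) reductase genes fell in both mutants. *ERG3*, for the C-5 desaturase, was at 13.16 to 13.39 in the wild type, at 12.43, 12.46 and 12.30 in *rna14-1* and at 13.01, 13.01 and 12.89 in *rna15-1*. It fell by 0.90 ± 0.08 in *rna14-1* (adjusted p = 1.7e-06, limma) and by 0.33 ± 0.08 in *rna15-1* (adjusted p = 0.0027, limma), and it was higher in *rna15-1* than in *rna14-1* by 0.58 (adjusted p = 3.3e-04, limma). *ERG5*, for the C-22 desaturase, a cytochrome P450, fell by 0.64 ± 0.11 and 0.47 ± 0.11. The last gene of the pathway, *ERG4*, fell by 0.87 ± 0.16 and 0.62 ± 0.16. In *rna15-1*, *ERG5* lost its call without replicate 1, and *ERG4* without replicate 3 (then -0.41, adjusted p = 0.019, limma) or any of 3 wild-type arrays. Against wild-type replicates 1 and 2 alone, *ERG3*, *ERG5* and *ERG4* were not past the threshold in *rna15-1* (-0.22, -0.28 and -0.40, adjusted p = 0.055, 0.046 and 0.11, limma). In *rna14-1* only *ERG4* lost its call there (adjusted p = 0.019, limma). Against replicates 3 to 5 alone, all were past it in both mutants. *ERG2*, for the C-8 isomerase, fell by 0.29 in *rna15-1* (adjusted p = 0.0012, limma) with -0.08 in *rna14-1*. *ERG6*, for the C-24 methyltransferase, had log2 fold changes of -0.03 and -0.04 (adjusted p = 0.69 and 0.61, limma), with all arrays between 13.00 and 13.23.

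Among the enzyme genes, those of sterol ester formation differed most between the mutants. *ARE1* (YCR048W, chromosome III) and *ARE2* (YNR019W, chromosome XIV) encode the acyl-CoA:sterol acyltransferases, of which Are2 provides the greater activity in aerobic cells. *ARE1* was at 10.50, 10.34, 10.66, 10.62 and 10.52 in the wild type, at 10.24, 10.18 and 10.29 in *rna14-1*, and at 9.20, 9.33 and 9.13 in *rna15-1*. All *rna15-1* arrays were more than 0.8 log2 units below all others, while *rna14-1* lay just under the lowest wild-type array. *ARE1* fell by 1.31 ± 0.08 in *rna15-1* (adjusted p = 3.7e-07, limma) and by 0.29 ± 0.08 in *rna14-1* (adjusted p = 0.0073, limma), and the latter call was lost without any of 8 single arrays. Genes of chromosome III had a median change of 0.21 in *rna15-1*, and the 20 nearest neighbours of *ARE1* had 0.06.

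*ARE2* was at 10.31, 10.06, 10.23, 10.54 and 10.29 in the wild type, at 10.80, 10.91 and 10.86 in *rna14-1*, and at 9.64, 9.79 and 10.08 in *rna15-1*. The *rna14-1* arrays were above all wild-type arrays, and *rna15-1* replicate 3 overlapped the wild type. *ARE2* rose by 0.57 ± 0.12 in *rna14-1* (adjusted p = 0.0012, limma) and fell by 0.45 ± 0.12 in *rna15-1* (adjusted p = 0.0057, limma), a call that was lost without any of 5 single arrays. Between the mutants, *ARE1* and *ARE2* differed by -1.01 ± 0.09 and -1.02 ± 0.13 (adjusted p = 1.5e-05 and 1.5e-04, limma). The change of *ARE1* was 0.86 below that of *ARE2* in each mutant (-0.97 to -0.80 on the *rna14-1* arrays, -1.19 to -0.67 on the *rna15-1* arrays and -0.16 to 0.19 in the wild type; exact permutation p = 0.0357, adjusted 0.0571).

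**Figure D4:**
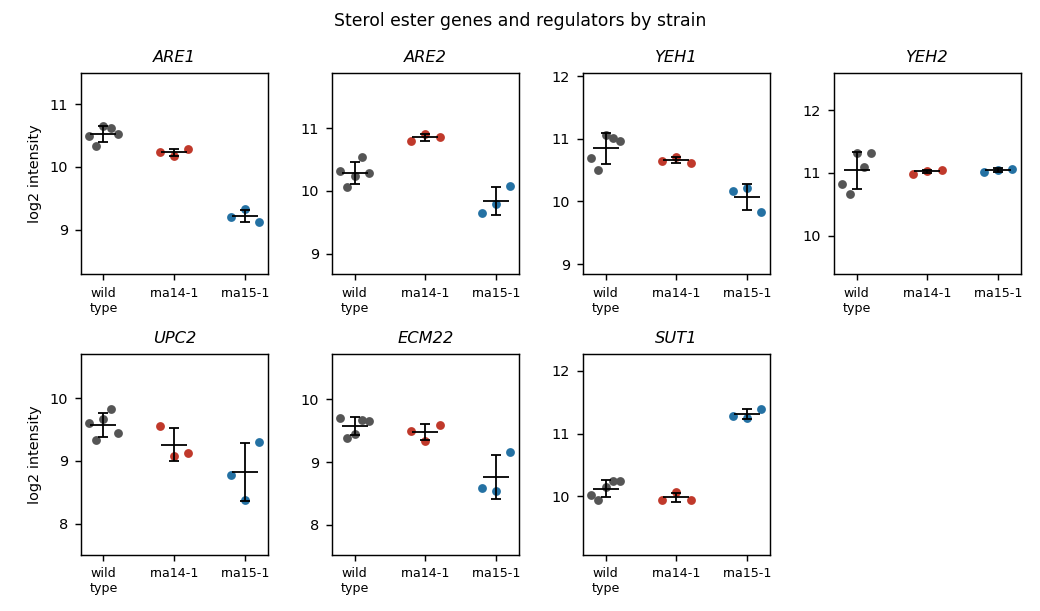
Log2 intensity (y axis) of the 4 sterol ester genes and the 3 transcription factor genes on each array (points) of the wild type, *rna14-1* and *rna15-1*, with the mean and standard deviation of each strain (bars); all panels span the same number of log2 units. *ARE1* is low and *SUT1* high on all *rna15-1* arrays, *ARE2* is high in *rna14-1*, and *UPC2* and *ECM22* are higher on *rna15-1* replicate 3 than on the other arrays of that strain.

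Of the paralogous genes of steryl ester hydrolases, *YEH1* and *YEH2*, the former fell in *rna15-1* and the latter was past the threshold in neither mutant. *YEH1* (YLL012W, chromosome XII) was at 10.69, 10.50, 11.06, 11.02 and 10.97 in the wild type, at 10.65, 10.71 and 10.62 in *rna14-1*, and at 10.16, 10.22 and 9.83 in *rna15-1*. It fell by 0.78 ± 0.14 in *rna15-1* (adjusted p = 4.7e-04, limma) while its value in *rna14-1* was -0.19 (adjusted p = 0.22, limma). *YEH2* (YLR020C, chromosome XII) was at 10.82, 10.66, 11.32, 11.09 and 11.32 in the wild type, at 10.99, 11.03 and 11.05 in *rna14-1* and at 11.01, 11.05 and 11.07 in *rna15-1*. The mutant arrays of *YEH2* lay within 0.08 of each other and in the middle of the wild-type range, which was the widest of the 33 genes (standard deviation 0.296). Against wild-type replicates 1 and 2 alone *YEH2* had log2 fold changes of 0.28 and 0.30, and against replicates 3 to 5 alone -0.22 and -0.20 (adjusted p of at least 0.012, limma), so the sign of its change in the mutants is not settled by these arrays. The change of *YEH1* was 0.78 below that of *YEH2* in *rna15-1* (exact permutation p = 0.0357, adjusted 0.0571) and 0.17 below it in *rna14-1* (exact permutation p = 0.107, adjusted 0.143).

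The activators of *ERG* genes were low in *rna15-1*. *UPC2* (YDR213W, chromosome IV) was at 9.61, 9.34, 9.67, 9.83 and 9.44 in the wild type, at 9.56, 9.08 and 9.13 in *rna14-1*, and at 8.78, 8.38 and 9.30 in *rna15-1*. *ECM22* (YLR228C, chromosome XII), its paralogue, was at 9.71, 9.39, 9.45, 9.68 and 9.66 in the wild type, at 9.50, 9.34 and 9.59 in *rna14-1*, and at 8.59, 8.54 and 9.16 in *rna15-1*. For both genes replicate 3 of *rna15-1* was the highest of its strain, by 0.72 and 0.59 over the mean of the other arrays, and still below all wild-type arrays. *UPC2* fell by 0.76 ± 0.20 in *rna15-1* (adjusted p = 0.0056, limma), or by 1.00 without replicate 3, and its call was lost without any of 5 other single arrays. *ECM22* fell by 0.82 ± 0.14 (adjusted p = 4.3e-04, limma), or by 1.02 without replicate 3. In *rna14-1* their log2 fold changes were -0.33 and -0.10 (adjusted p = 0.15 and 0.52, limma). The changes of the pair differed by -0.22 in *rna14-1* and 0.06 in *rna15-1* (exact permutation p = 0.214 and 0.786).

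*SUT1* (YGL162W, chromosome VII), for a zinc cluster factor that promotes sterol uptake, was the 1 gene of the 33 with an increase of over 2-fold. It was at 10.02, 9.94, 10.15, 10.25 and 10.24 in the wild type, at 9.95, 10.07 and 9.94 in *rna14-1*, and at 11.28, 11.25 and 11.40 in *rna15-1*. The *rna15-1* arrays lay 1 log2 unit above all others, and *rna14-1* overlapped the wild type. *SUT1* rose by 1.19 ± 0.09 in *rna15-1* (adjusted p = 1.0e-06, limma), 2.28-fold, while its value in *rna14-1* was -0.13 (adjusted p = 0.18, limma).

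The mutants were compared with each other in the same fit. Of the 33 genes, 9 were lower in *rna15-1* than in *rna14-1* (27.3%, against 16.5% of all genes) and 2 were higher (6.06%, against 16.0%). The lower genes were *ERG10*, *ERG13*, *ERG7*, *ERG11*, *ERG25*, *ARE1*, *ARE2*, *YEH1* and *ECM22*, and the higher ones *ERG3* and *SUT1*. At the methods' thresholds *ARE1* and *ARE2* were lower (2.88% of all genes were) and *SUT1* was higher (2.02% of all genes). All *rna15-1* arrays were below all *rna14-1* arrays for 14 genes and above them for 3 (29.1% and 29.5% of all genes). The median difference of the 33 genes was -0.20, against 0.01 for all genes. Without *rna15-1* replicate 3 that median was -0.06 and 5 genes were higher in *rna15-1*, as *ERG24*, *ERG27* and *ERG28* joined *ERG3* and *SUT1* (0.55, 0.42 and 0.58; adjusted p = 0.0044, 3.4e-04 and 4.9e-04, limma). Genes of chromosome V, where *ERG28* lies, had a median difference of 0.43 between the mutants over all arrays. With chromosome medians subtracted, again over all arrays, the difference of *ERG28* was -0.08 (adjusted p = 0.41, limma). The calls of *YEH1* and *ECM22* in this comparison were lost without any of 9 and any of 4 single arrays.

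Set side by side, *HMG1*, *HMG2*, *ERG24*, *ERG26*, *ERG29*, *NCP1*, *ERG3*, *ERG5*, *ERG4* and *ARE1* fell in each mutant's own comparison, while *ERG27* and *ERG28* fell in *rna14-1* and were not past the threshold in *rna15-1*. *ERG7* and *ARE2* were the genes that rose in *rna14-1* and fell in *rna15-1*. *ERG20*, *ERG1*, *ERG6* and *YEH2* passed the threshold in no comparison. Both mutants were compared with the same 5 wild-type arrays, so that these sets are not independent of each other and nothing is read from how many genes they share. On *rna15-1* replicate 3, 16 of the 33 genes were above and 14 below both other arrays of that strain. Of all 5449 genes, 2378 were above and 2579 below. For the sterol genes the differences ran from -0.75 to 0.72 with a median of -0.00, while 19 of 20 stress genes were above both (median 0.76).

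**Figure D5:**
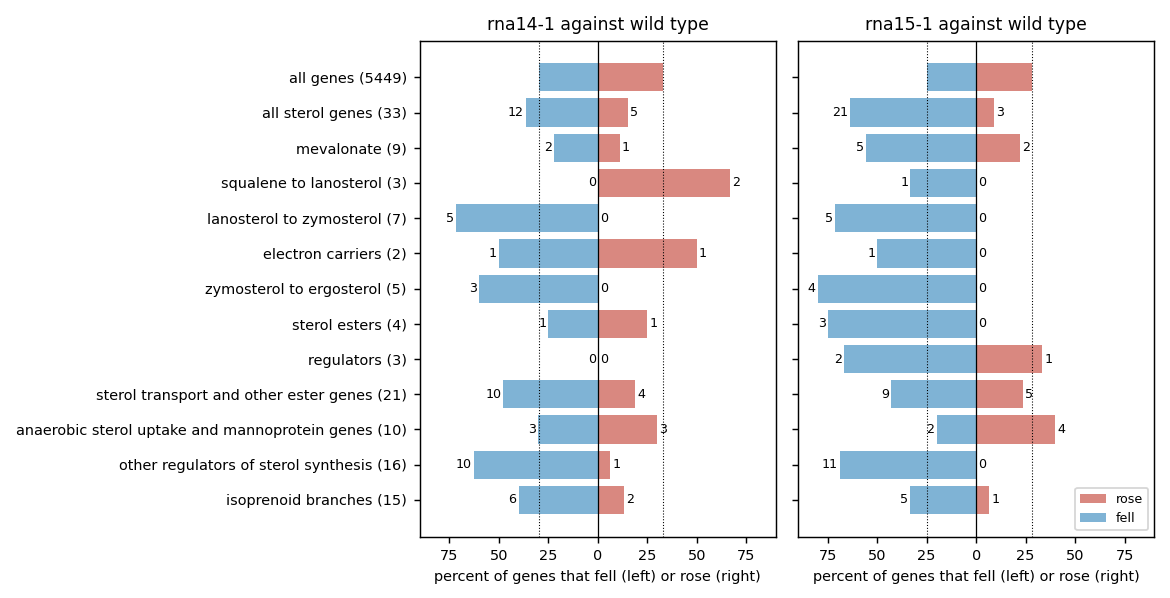
Percent of genes that fell (blue, to the left) or rose (red, to the right) in *rna14-1* and in *rna15-1*, for all genes, the 33 sterol genes, each pathway step and 4 lists of other sterol and isoprenoid genes, with the number of genes in each list in brackets and the number changed beside each bar. Dotted lines mark the share of all genes; in *rna15-1* the sterol genes fell in 21 of 33 cases and the other regulators of sterol synthesis in 11 of 16.

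Genes that act next to the pathway were counted in 4 lists of 62 genes, of which *rna14-1* had 10 risen and 29 fallen and *rna15-1* 10 risen and 27 fallen. For these lists too, the shares of all genes were 32.8% risen and 29.5% fallen in *rna14-1*, and 28.2% and 24.7% in *rna15-1*. Of 16 further regulators of sterol synthesis, 10 fell in *rna14-1* and 11 in *rna15-1*, with medians of -0.57 and -0.59. The genes with the largest changes among them belong to the degradation of endoplasmic reticulum proteins, the system that removes Hmg2. *UBX2*, for a membrane anchor of the Cdc48 segregase, fell by 1.96 ± 0.12 in *rna14-1* (adjusted p = 2.4e-07, limma) and by 1.66 ± 0.12 in *rna15-1* (adjusted p = 1.1e-06, limma). *HRD3* and *USA1*, for partners of the ubiquitin ligase Hrd1, fell by 1.82 and 1.76 in *rna14-1* and by 1.62 and 1.86 in *rna15-1*. Every mutant array of these 3 genes was more than 1 log2 unit below every wild-type array. Other genes of that system in the list changed less. In *rna14-1* and *rna15-1*, *HRD1* itself fell by 0.43 and 0.75 and *CUE1* by 1.10 and 0.51. *UBC7* was past the threshold in neither mutant (0.17 and 0.10; adjusted p = 0.094 and 0.31, limma).

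Of 21 genes of sterol transport and other ester genes, *rna14-1* had 4 risen and 10 fallen and *rna15-1* 5 risen and 9 fallen (all genes: 32.8% and 29.5%, then 28.2% and 24.7%). *PRY1*, for a secreted protein that binds sterols, rose by 1.71 ± 0.11 and 2.08 ± 0.11 (adjusted p = 4.3e-07 and 1.7e-07, limma). *HES1*, of the oxysterol-binding protein family, rose by 2.47 ± 0.42 in *rna14-1* (adjusted p = 2.9e-04, limma), with 8.70 to 9.08 there, 7.52 to 8.39 in *rna15-1* and a wide 5.45 to 7.31 in the wild type. *SWH1*, of the same family, was at 10.33 to 10.56 in the wild type and 10.04 to 10.22 in *rna14-1*. On the *rna15-1* arrays it was at 4.24, 4.37 and 4.27, where background was 4.31, 4.33 and 4.27, so that no fold change is given.

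Of 10 genes of anaerobic sterol uptake and cell wall mannoproteins, *rna14-1* had 3 risen and 3 fallen and *rna15-1* 4 risen and 2 fallen (to be read against the same shares of all genes). *PAU24*, a mannoprotein gene, rose by 2.60 ± 0.23 and 1.79 ± 0.23, a value that may include near-identical members of the PAU family. *DAN1*, another of them, rose in both (adjusted p = 1.8e-05 and 8.4e-04, limma), from 4.29 to 5.27 in the wild type to at least 6.58 in *rna14-1* and at least 5.55 in *rna15-1*. It was above background on only 2 of the 5 wild-type arrays, so that no fold change is given. Of 15 genes of isoprenoid branches, *rna14-1* had 2 risen and 6 fallen and *rna15-1* 1 risen and 5 fallen (all genes: 32.8% and 29.5%, then 28.2% and 24.7%). *SRT1*, for a cis-prenyltransferase of dolichol synthesis, rose by 3.29 ± 0.34 and 2.45 ± 0.34 (adjusted p = 7.5e-06 and 9.5e-05, limma), from 5.89 to 7.18 in the wild type to 9.75 to 10.14 in *rna14-1* and 8.59 to 9.90 in *rna15-1*. *NUS1*, for a further subunit of dolichol synthesis, fell by 0.98 ± 0.13 in *rna15-1*, and *BET2*, for a subunit of a protein prenyltransferase, by 1.59 ± 0.19 in *rna14-1*.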

How the data were processed

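The deposited values are log2 intensities that the authors made from the scans with GCOS and RMA (background correction, normalisation over all arrays and summary per probe set) before testing them with limma, and no versions are given in the sources used here. They were used as deposited. No raw scans were used here, so the background correction could not be varied, and RMA gives all arrays nearly the same distribution, so changes are relative to the bulk of genes. Arrays were grouped by their labels. All 5 wild-type arrays were used, although the methods state triplicates.

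Of 10928 probe sets, 7244 have 1 gene name in the platform's annotation, 1 has several and 3683 have none. Those of *S. cerevisiae* genes in the R64 RefSeq gene table (5498) gave 5449 genes, with the brightest probe set for 47 genes with several, and 1746 others gave the background. Coordinates are left out because the deposited table states no build. The probe sets of the 33 sterol genes carry no suffix for shared sequence.

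In R 4.3.3 with limma 3.58.1, lmFit and eBayes were run over all genes and 11 arrays with 1 coefficient per strain, and p-values were adjusted by the Benjamini-Hochberg method. They measure only the spread between these arrays, whose number limits the precision. Paralogues were compared by exact two-sided permutation tests of the difference of their values. Alternatives left out each array, took other wild-type arrays, quantile normalisation, a median shift, a background floor, a filter on A, the mean of probe sets, 2-group fits, another variance model, an adjusted p under 0.05, a replicate block or chromosome medians, and dropped the filters on A and B. Tested on simulated data for *rna14-1* over 5449 genes, the fit called 20 of 50 genes changed by 0.5 on the log2 scale, 45 of 50 by 1, all 50 by 1.5 and by 2, and 2 of 5249 unchanged genes. In the data far more genes changed in *rna14-1* (1788 rose and 1606 fell), which alters the adjustment of p. The simulated recovery therefore does not give the power on the data. Plots used matplotlib 3.10.9 in Python 3.11.15.

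The 33 genes and the lists were chosen with earlier results of these data known. Values on every array are given for genes past the methods' thresholds in any comparison, the 3 with the largest change in each among those with an adjusted p under 0.01, and 4 paralogue pairs. Of each other list, up to 2 genes per mutant with the largest change past that threshold are named. *HRD1*, *CUE1* and *UBC7* are named besides, as genes of the same system.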

Additional observations from a re-analysis of the deposited data

Results flagged for a closer look

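For 11 sterol genes the change in *rna15-1* differed from that in *rna14-1* in a test of the difference itself (limma, adjusted p under 0.01, 3 against 3 arrays, with the spread taken from all 11). Of the 33 genes, 27.3% were lower and 6.06% higher in *rna15-1*, against 16.5% and 16.0% of all genes. The log2 change was lower in *rna15-1* by -0.35 for *ERG10*, -0.54 for *ERG13*, -0.73 for *ERG7*, -0.50 for *ERG11* and -0.55 for *ERG25*. It was also lower by -1.01 for *ARE1*, -1.02 for *ARE2*, -0.59 for *YEH1* and -0.72 for *ECM22*. It was higher in *rna15-1* by 0.58 for *ERG3* and by 1.32 for *SUT1*. All *rna15-1* arrays lay on 1 side of all *rna14-1* arrays for each of these genes. Since the genes were chosen by a test on the same arrays, that adds nothing to the test. Of all genes, 29.1% had all *rna15-1* arrays below and 29.5% above. *ERG7* and *ARE2* changed in opposite directions in the mutants, and both directions were past the threshold. By Dixon's test, which was run on the 5 wild-type arrays for each of the 33 genes, 0 genes had a single array standing apart at the 95% level, and the largest gap of an end array to its neighbour was 0.653 of the range (*ERG20*). That test does not look for 2 sets of arrays.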

How the results depend on the processing

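Of 52 calls of sterol genes over the 3 comparisons, 25 were kept in all 24 alternatives and 39 in every fit that left out 1 array, and 0 reversed in limma. Of 47 results not past the threshold, 14 passed it in some alternative. Against wild-type replicates 1 and 2 only, 1 gene rose and 7 fell in *rna14-1* (against 5 and 12), 10 fell in *rna15-1* (against 21), 1 passed the methods' thresholds downwards in *rna14-1* (against 3) and 1 between the mutants (against 2). Against replicates 1 to 3 only, 12 fell in *rna15-1*. With the replicate number as a replicate block, 2 rose and 7 fell in *rna14-1*, 9 fell in *rna15-1*, 1 passed the methods' thresholds downwards in *rna14-1* and 1 between the mutants, and of the 62 other genes 8 were higher and 4 lower in *rna15-1* than in *rna14-1* (against 13 and 7). Wild-type replicates 4 and 5 share their number with no mutant array, so the block fit in effect compared the mutants with wild-type replicates 1 to 3. The median change of the sterol genes in that fit was -0.09 in *rna14-1* and -0.36 in *rna15-1*. Both medians were the same against wild-type replicates 1 to 3 only. Deviations of arrays with the same number correlated by -0.138 to 0.344 over 9 pairs, against -0.361 to 0.320 over 30 others. Such overlapping ranges from few arrays cannot decide whether arrays with the same number were paired. An adjusted p under 0.05 gave 4 genes higher in *rna15-1* than in *rna14-1* and 14 of the other genes lower, and the 2-group fit gave 4 of these lower. The 2-group fit and the median shift each left 1 gene past the methods' thresholds downwards between the mutants. Leaving out 1 array at a time gave 3 to 5 genes that rose and 9 to 14 that fell in *rna14-1*, and 17 to 21 that fell in *rna15-1*. Between the mutants it gave 2 to 5 higher and 7 to 9 lower genes, 0 to 2 past the methods' thresholds downwards (0 without *rna14-1* replicate 3, where both kept an adjusted p under 0.01), and 8 to 14 higher and 4 to 12 lower genes of the 62 others (12 without *rna15-1* replicate 3). Fits with fewer arrays have less power by construction, and the fit with the replicate block counts among them. The cause of the other differences was not tested. All sterol genes were above background on every array, and compression of the brightest signals was not tested. In the simulation for *rna14-1*, where far fewer genes changed than in the data, 20 of 50 changes of 0.5 were recovered. That share does not give the power on the data.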
